A study of Arabis alpina with 19 samples.

Results

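The comparison set the perennial zone (PZ) of a lateral stem of Arabis alpina against the short internode of its annual zone (AZ), both at 30 weeks. It used 7 of the 19 RNA sequencing libraries of the series, 3 of IV_PZ and 4 of IV_AZ_si, taken by their labels. All plants carried the pep1-1 allele of PERPETUAL FLOWERING 1 and grew under long days, with no treatment given in the labels, so every group compared shares the mutation and no wild type enters. IV_PZ was the whole first internode of the perennial zone and IV_AZ_si a whole short internode of the annual zone, in both cases on lateral stems from the lowest nodes of the main axis. The other 12 libraries, used here for reference, were the same perennial internode at 4, 5 and 7 weeks (I_PZ, II_PZ and III_PZ) and an annual internode next to the inflorescence at 30 weeks (IV_AZ_if), with 3 libraries each. Each biological replicate pooled 12 plants. The design text names 3 replicates a stage, while IV_AZ_si has 4 libraries.

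Arabis alpina is a perennial relative of Arabidopsis whose lateral stems keep a lower zone that lives on and an upper zone that flowers and later dies back. The perennial zone thickens through a cambium, the cylinder of dividing cells that makes wood and phloem, and its parenchyma stores carbon reserves. PERPETUAL FLOWERING 1 encodes a repressor of flowering, and the mutant flowers without a cold period. The series is titled for secondary growth promoted by cytokinin, a plant hormone known for driving cambium division, and for nutrient storage. Whole internodes mix wood, bark, pith and epidermis, so fewer cells of a type and less RNA per cell cannot be told apart. No gene names come with the target identifiers in the files, so tissue markers could not be checked and transcripts are given by their identifiers, with no role assigned to any of them.

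The 7 libraries held 22343790 to 27314330 estimated counts. Abundance is given in TPM, a length-corrected share of each library's transcripts. IV_AZ_si replicate 2 stood apart from its group mates, and the main results are given with and without it. Fold changes and adjusted p-values come from edgeR's quasi-likelihood test over all tested targets with Benjamini-Hochberg adjustment, and a target is called at an adjusted p under 0.05.

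The transcript pools of the perennial zone and the short internode differed far beyond the spread of their replicates. Between an IV_PZ and an IV_AZ_si library, 25.4% to 30.5% of the TPM was assigned to different targets, with a mean of 28.2% and a mean of 29.0% without IV_AZ_si replicate 2. Replicates differed from each other by 7.09% to 9.09% within IV_PZ and by 7.43% to 10.9% within IV_AZ_si. Every pair across the groups thus differed more than every pair within them. The pool of IV_PZ was also narrower. Its libraries held counts for 23259 to 23510 targets and those of IV_AZ_si for 24249 to 24814. The 100 most abundant targets made up 25.3% ± 0.96 of all TPM in IV_PZ (SD, n = 3) and 22.0% ± 0.43 in IV_AZ_si (SD, n = 4), and the groups did not overlap. Of the TPM, 50% rested on 692 to 805 targets in IV_PZ and on 900 to 967 in IV_AZ_si. For each of these 3 measures the exact two-sided permutation test gave p = 0.0571, the smallest that 3 libraries against 4 allow, and p = 0.1 without replicate 2, again the smallest possible.

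Of the 4 short-internode libraries, replicate 2 lay nearest to the perennial zone and farthest from the internode by the inflorescence. Its mean distance to IV_PZ was 25.7% of the TPM, against 28.2%, 28.6% and 30.2% for replicates 1, 3 and 4. Its distance to IV_AZ_if was 24.6%, against 21.5%, 21.8% and 19.9%. Replicate 4 had the opposite place, farthest from IV_PZ and nearest to IV_AZ_if. Between the same 2 libraries the distance was 10.9%, the largest within the group. All 4 libraries were nearer to each other than to any other group.

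**Figure D1:**
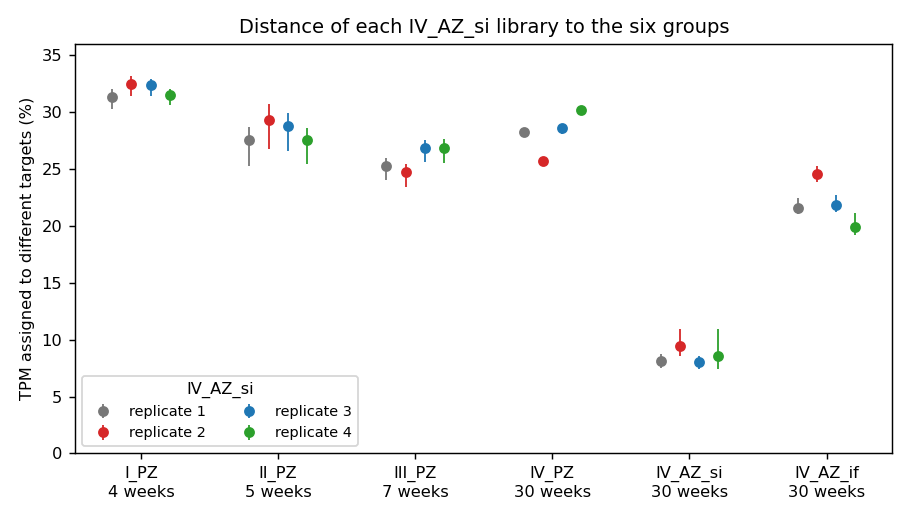
Share of TPM assigned to different targets between each IV_AZ_si library and the libraries of each group, in percent; points are means and bars run from the lowest to the highest pair. Replicate 2 is the lowest of the 4 toward IV_PZ (25.7%) and the highest toward IV_AZ_if (24.6%), and replicate 4 the reverse (30.2% and 19.9%).

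The place of each short-internode library was also read target by target, on a scale where 0 is the mean of its 3 group mates and 100 the mean of IV_PZ, in log2(TPM + 1). The targets were called without that library, differed at least 4-fold and had at least 5 TPM in the higher group. Replicate 2 had a median place of 18.1% over 414 targets higher in IV_PZ, with quartiles of 4.05% and 34.9%. Over 1049 targets lower in IV_PZ its median place was 11.6%. Among the 4 libraries it was the one nearest to IV_PZ for 66.2% of the first and 62.6% of the second. Replicate 1 had medians of 0.767% and -1.79%, replicate 3 of -3.74% and 0.622%, and replicate 4 of -9.37% and -7.08%. Replicate 2 had been singled out for lying near the perennial zone, so its place is a description. The shift was present both in targets higher and in targets lower in the perennial zone. It was partial, with upper quartiles of 34.9% and 18.9%. What part the displacement has in the results below was tested by leaving the library out; its origin was not tested.

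**Figure D2:**
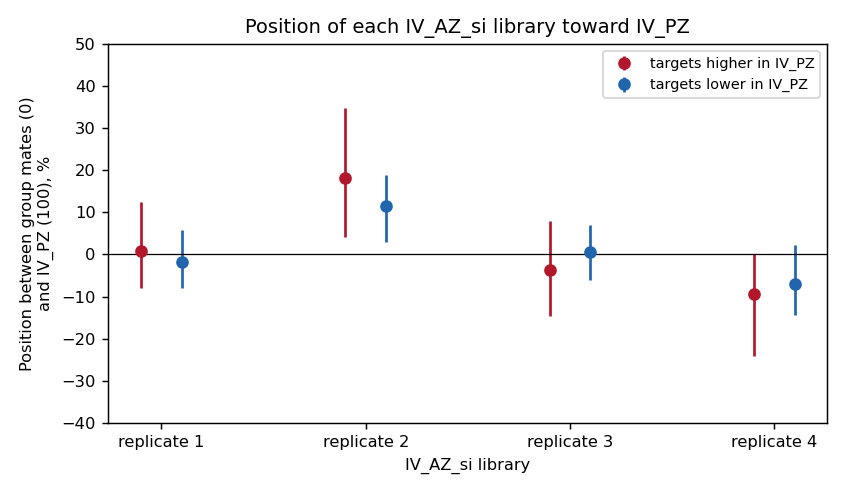
Position of each IV_AZ_si library between its 3 group mates (0) and IV_PZ (100), in percent on the log2(TPM + 1) scale; points are medians over targets and bars the quartiles. Replicate 2 is the only library whose quartile bars lie wholly above 0 in both sets, with medians of 18.1% and 11.6%.

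More targets were lower in the perennial zone than higher, and the lower ones differed by more. Of 23528 tested targets, 57.1% were called: 6041 higher in IV_PZ (25.7%) and 7393 lower (31.4%). The median log2 fold change was 0.67 among those higher and -1.06 among those lower, beside -0.04 over all tested targets. At least 8-fold differences numbered 394 higher and 1430 lower, and at least 32-fold differences 139 higher and 754 lower. Without IV_AZ_si replicate 2, 56.1% of 23458 targets were called, 5890 higher (25.1%) and 7272 lower (31.0%). The same direction was called in both fits for 5652 higher and 7015 lower targets, and none was called in opposite directions. Another 767 targets were called only with replicate 2 and 495 only without it. Differences were larger without it for 67.1% of the targets higher in both fits and for 73.3% of those lower in both. Replicate 2 had been singled out for lying near IV_PZ, so these shares follow at least in part from that choice. The median shift in log2 fold change was small, at 0.02 for the higher and -0.04 for the lower targets. Targets at least 32-fold higher went from 139 to 172, while those at least 32-fold lower went from 754 to 743. The excess of lower targets was smaller when only the 7 libraries were fitted, with 6061 called higher and 6580 lower. In TMM-scaled CPM every IV_PZ library lay above every IV_AZ_si library for 6348 targets and below for 7167, together 57.4% of those tested, where 57.1% were called. Without replicate 2 this was 62.6%, where 56.1% were called. Leaving any library out of a group can only reduce the overlap of a given target, so this rise is not particular to replicate 2.

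The excess of lower targets was widest among rare transcripts. Below a mean of 1 TPM over the 7 libraries, 287 of 2918 tested targets were higher in IV_PZ (9.84%) and 935 lower (32.04%). Between 5 and 20 TPM the shares were 28.6% and 28.5%. From 100 to 1000 TPM, 490 were higher and 582 lower. Above 1000 TPM, 41 of 88 targets were higher (46.6%) and 29 lower (33.0%). Differences of at least 4-fold leaned to the lower side at every level up to 1000 TPM. They numbered 215 higher and 723 lower below 1 TPM, 219 and 639 from 1 to 5 TPM, 145 and 424 from 5 to 20 TPM, 87 and 273 from 20 to 100 TPM, and 37 and 125 from 100 to 1000 TPM. Above 1000 TPM there were 9 and 8. Fewer counts stand behind the rare targets, so smaller differences could be called among the abundant ones.

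The difference in the pool was unevenly spread over the targets. Comparing group means, 112 of 12367 targets made up 50% of the TPM gained in IV_PZ, and 191 of 14797 made up 50% of the TPM lost. The 6 targets with the largest gains accounted for 13.7% of the gain (3.69% of the whole pool) and the 6 with the largest losses for 12.1% of the loss (3.27% of the pool).

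Of the targets that gained most, Aa_G617210.h1 and Aa_G688860.h1 were the most abundant in the perennial zone. Aa_G617210.h1 was at 11172, 10585 and 10184 TPM in the IV_PZ libraries and at 3164, 3801, 3316 and 2763 TPM in IV_AZ_si replicates 1 to 4. Its lowest IV_PZ library was thus far above its highest short-internode library, which was replicate 2. The log2 fold change was 1.74 ± 0.10 (SE; adjusted p = 2.66e-10, edgeR) and 1.82 ± 0.10 without replicate 2. Aa_G688860.h1 was at 10682, 10071 and 10309 TPM in IV_PZ and at 3027, 3456, 2995 and 2721 TPM in IV_AZ_si. Replicate 2 was again the highest of the short-internode libraries, and the groups did not overlap. Its log2 fold change was 1.80 ± 0.15 (SE; adjusted p = 1.37e-08, edgeR), and 1.86 ± 0.16 without replicate 2. Both targets share reads with others, so their levels depend on how kallisto divided those reads.

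Aa_G438760.h1 and Aa_G430660.h1 had also risen in the young perennial zone between 5 and 7 weeks (adjusted p = 0.00220 and 2.98e-07, edgeR). Aa_G438760.h1 was at 9121, 8695 and 10510 TPM in IV_PZ and at 2129, 2536, 2059 and 2330 TPM in IV_AZ_si. At 5 weeks it had been at 145 ± 105 TPM and at 7 weeks at 1813 ± 209 TPM (SD, n = 3 each). The log2 fold change between the zones was 2.09 ± 0.71 (SE), with an adjusted p of 0.0186 in edgeR over all libraries and of 9.46e-07 when only the 7 libraries were fitted. With IV_AZ_si replicate 2 left out it was 2.15 ± 0.81 (SE; adjusted p = 0.0324, edgeR). The fit of all groups also spans groups whose libraries differ widely: replicates 1 to 3 held 15.6, 15.8 and 308 TPM in I_PZ, 96.8, 72.6 and 265 TPM in II_PZ and 132, 462 and 167 TPM in IV_AZ_if, and their part in the error was not tested. Aa_G430660.h1 was at 7018, 6594 and 7569 TPM in IV_PZ and at 2067, 2717, 2132 and 1898 TPM in IV_AZ_si, a log2 difference of 1.71 ± 0.20 (SE; adjusted p = 1.35e-06, edgeR). It had been at 272 ± 58.5 TPM at 5 weeks and at 1496 ± 31.3 TPM at 7 weeks (SD, n = 3 each).

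Aa_G56460.h1 and Aa_G622600.h1 did not follow that course. Aa_G56460.h1 was at 7222, 8834 and 6609 TPM in IV_PZ and at 1909, 1465, 2457 and 1904 TPM in IV_AZ_si, with replicate 2 the lowest. Its log2 fold change was 1.99 ± 0.13 (SE; adjusted p = 1.01e-09, edgeR). The internode by the inflorescence held almost as much as the perennial zone, at 6053 ± 341 TPM (SD, n = 3), while at 7 weeks the perennial zone held 861 ± 126 TPM (SD, n = 3). Of the 30-week internodes, the short one was thus the low one. Aa_G622600.h1 was at 6004, 7057 and 5590 TPM in IV_PZ and at 1782, 1703, 1566 and 1548 TPM in IV_AZ_si, a log2 difference of 1.94 ± 0.09 (SE; adjusted p = 3.18e-11, edgeR). It was already at 3509 ± 654 TPM at 5 weeks and at 2478 ± 131 TPM at 7 weeks (SD, n = 3 each), and fell between those ages (adjusted p = 4.83e-06, edgeR). Without IV_AZ_si replicate 2 the log2 fold changes between the zones were 1.83 for Aa_G430660.h1, 1.88 for Aa_G56460.h1 and 1.95 for Aa_G622600.h1.

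**Figure D3:**
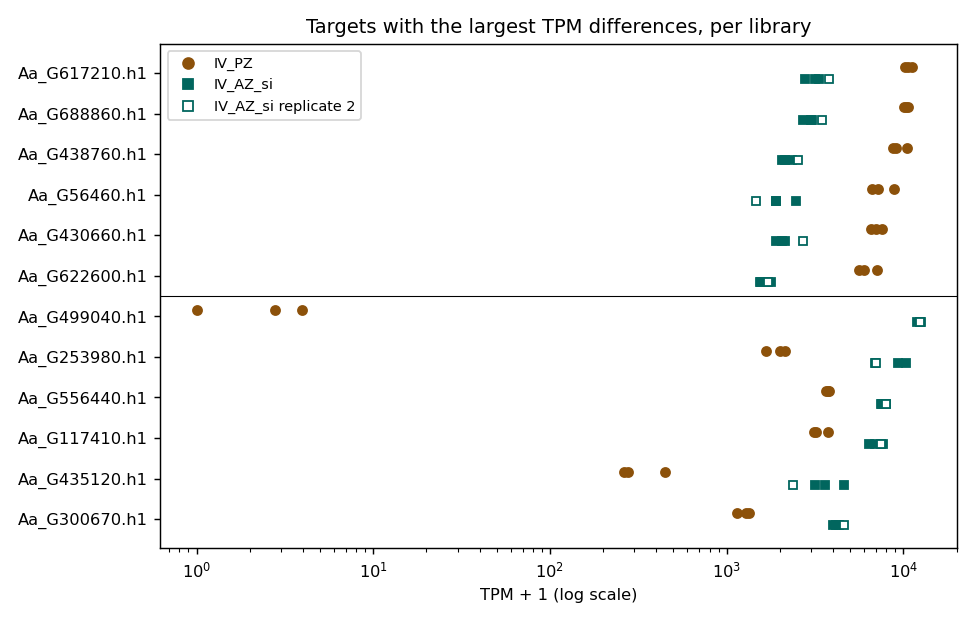
TPM + 1 on a log scale in the 3 IV_PZ and 4 IV_AZ_si libraries for the 6 targets with the largest gain (above the line) and the 6 with the largest loss (below it) of mean TPM in IV_PZ; each point is 1 library and open squares are IV_AZ_si replicate 2. The groups do not overlap for any of the 12 targets, which were chosen for large differences. Of all 23528 tested targets, 57.4% had no overlap in TMM-scaled CPM. For Aa_G499040.h1 the IV_PZ libraries lie between 0 and 2.95 TPM.

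The largest loss was nearly complete. Aa_G499040.h1 was at 12002, 12388, 12460 and 12623 TPM in IV_AZ_si, the most abundant of the targets named here in that internode, and at 0, 2.95 and 1.79 TPM in IV_PZ. All 4 short-internode libraries agreed closely, replicate 2 among them. The log2 fold change was -12.88 ± 0.55 (SE; adjusted p = 1.18e-11, edgeR), -12.89 without IV_AZ_si replicate 2 and -13.64 without IV_PZ replicate 2, which held the most of it. The internode by the inflorescence held 10642 ± 1109 TPM (SD, n = 3). In the perennial zone it stood at 4197 ± 1918 TPM at 5 weeks and at 421 ± 135 TPM at 7 weeks (SD, n = 3 each). The target shares reads with others.

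Aa_G253980.h1 was at 1678, 2010 and 2134 TPM in IV_PZ and at 6885, 7005, 9326 and 10354 TPM in IV_AZ_si. Replicates 1 and 2 were the lower pair, but no short-internode library came near the perennial zone. Its log2 fold change was -2.09 ± 0.16 (SE; adjusted p = 5.91e-09, edgeR), and it was still more abundant by the inflorescence, at 20911 ± 2263 TPM (SD, n = 3). Between 5 and 7 weeks it fell in the perennial zone from 13966 ± 548 to 1450 ± 200 TPM (SD, n = 3 each), or by a log2 difference of -3.52 ± 0.17 (SE; adjusted p = 8.06e-11, edgeR). The level of IV_PZ was thus already near that at 7 weeks.

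Aa_G556440.h1, Aa_G300670.h1 and Aa_G997470.h1, like Aa_G499040.h1, were higher in each short-internode library than in any other library of the series. This was a rule for naming targets, and 731 tested targets (3.11%) met it. Aa_G556440.h1 was at 3725, 3657 and 3805 TPM in IV_PZ and at 7617, 7997, 8013 and 7469 TPM in IV_AZ_si. The log2 fold change was -1.03 ± 0.09 (SE; adjusted p = 4.64e-08, edgeR). Aa_G300670.h1 was at 1283, 1148 and 1330 TPM in IV_PZ and at 4297, 4598, 4133 and 4010 TPM in IV_AZ_si. It shares reads, and its log2 fold change was -1.73 ± 0.49 (SE; adjusted p = 0.00622, edgeR; 1.08e-06 over the 7 libraries alone). Aa_G997470.h1, at 1153, 979 and 1071 TPM against 3406, 3732, 3531 and 3325 TPM, had a log2 difference of -1.68 ± 0.56 (SE; adjusted p = 0.0156, edgeR). That call was lost without IV_PZ replicate 2 in the fit of all other libraries (adjusted p = 0.0528, edgeR), and held at 1.20e-06 over the 7 libraries alone. For both targets replicate 3 stood above its group mates in I_PZ, at 222 and 214 TPM beside 21.3 to 37.9 TPM, and in II_PZ, at 602 and 485 TPM beside 163 to 290 TPM; the part of these libraries in the error was not tested.

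Aa_G117410.h1 was at 3747, 3112 and 3214 TPM in IV_PZ and at 7659, 7488, 6406 and 6881 TPM in IV_AZ_si, a log2 difference of -1.05 ± 0.13 (SE; adjusted p = 2.64e-06, edgeR). Aa_G435120.h1 was at 263, 276 and 445 TPM in IV_PZ and at 3625, 2361, 3148 and 4636 TPM in IV_AZ_si. Replicate 2 was the lowest and replicate 4 the highest of the short-internode libraries, and all lay far above IV_PZ. Its log2 fold change was -3.36 ± 0.25 (SE; adjusted p = 4.35e-09, edgeR), and -3.51 ± 0.23 without replicate 2. The other losses moved little without it, to -2.17 for Aa_G253980.h1, -1.02 for Aa_G556440.h1, -1.03 for Aa_G117410.h1, -1.70 for Aa_G300670.h1 and -1.65 for Aa_G997470.h1, the last with an adjusted p of 0.0259 (edgeR).

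Complete absence was far more common in the perennial zone than in the short internode. Among the tested targets, 96 had at least 5 TPM in IV_AZ_si and no count in IV_PZ, and 14 had at least 5 TPM in IV_PZ and no count in IV_AZ_si. Without IV_AZ_si replicate 2 the numbers were 97 and 23, so replicate 2 held counts for 9 targets that its group mates lacked and the perennial zone had. Leaving out replicate 1, 3 or 4 in its place gave 18, 19 and 15. Counting targets that were too rare to test as well, there were 152 and 39, and 167 and 60 without replicate 2. Folds against a group with no count are lower bounds, set at 3 counts over the group's libraries, and cover counting error only.

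The 4 most abundant of the targets missing from the perennial zone were at 158 to 321 TPM in the short-internode libraries. They were named for having no count in IV_PZ, so an adjusted p for that difference adds no support. Aa_G222580.h1, at 273, 231, 319 and 321 TPM in IV_AZ_si, was at least 2770-fold lower in IV_PZ (edgeR adjusted p = 1.24e-08). Its fall in the perennial zone was weak, from 31.1 to 97.2 TPM at 5 weeks to an overlapping 21.3 to 55.5 TPM at 7 weeks. The log2 difference was -1.06 ± 0.43 (SE; adjusted p = 0.0434, edgeR). Aa_G539240.h1 was at 172, 175, 185 and 181 TPM, at least 7050-fold lower in IV_PZ, and was at 924 ± 89.3 TPM in IV_AZ_if and 606 ± 36.9 TPM in II_PZ (SD, n = 3 each). Aa_G479240.h1 was at 193, 230, 251 and 308 TPM, at least 426-fold lower in IV_PZ. Its level in the perennial zone had been 74.2 to 352 TPM at 5 weeks and 0 to 22.8 TPM at 7 weeks. Aa_G93530.h1, which shares reads, was at 184, 270, 158 and 185 TPM in IV_AZ_si, at least 2440-fold lower in IV_PZ. While the other 3 fell, it rose in the perennial zone between 5 and 7 weeks, from 1.45 ± 0.81 to 219 ± 46.6 TPM (SD, n = 3 each; adjusted p = 4.72e-09, edgeR), so its absence at 30 weeks followed a high level at 7 weeks. Leaving out IV_AZ_si replicate 2, the 4 bounds were 2920-fold, 7040-fold, 433-fold and 2150-fold in the same order.

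The 4 most abundant of the tested targets found in the perennial zone and missing from the short internode were at 10.7 to 182 TPM, with coding lengths of 156 to 453 bases. They were named for having no count in IV_AZ_si, so an adjusted p for that difference adds no support. Aa_G206640.h1 was at 88.1, 182 and 116 TPM in IV_PZ, on 32, 67 and 43 counts, and at least 61.5-fold higher than in IV_AZ_si (edgeR adjusted p = 5.69e-05). It had no count in I_PZ, II_PZ or IV_AZ_if and was at 36.8 to 55.2 TPM in III_PZ. Aa_G281770.h1 was at 45.0, 36.4 and 49.1 TPM in IV_PZ, on 78, 64 and 87 counts, and had no count in any other library of the series. Its bound was 99.3-fold (edgeR adjusted p = 0.000201), and it passed the filter on counts through IV_PZ alone. Aa_G680260.h2, which shares reads, was at 79.96, 35.5 and 44.0 TPM in IV_PZ on 26.7, 12 and 15 estimated counts, at least 23.3-fold higher. Aa_G232120.h1 was at 23.5, 76.9 and 10.7 TPM, at least 544-fold higher, but at least 254-fold without IV_PZ replicate 2. If IV_AZ_si replicate 2 was left out, the 4 bounds were 47.0-fold, 75.9-fold, 17.8-fold and 415-fold in the same order.

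Another group of targets was in IV_PZ and in IV_AZ_si replicate 2 but had no count in its 3 group mates. Those below were named for that pattern, so an adjusted p for the difference between the zones adds no support. The clearest was Aa_G412950.h1, at 57.2, 65.1 and 52.3 TPM in IV_PZ, at 0.558 TPM in replicate 2 on 6 counts, and with no count in the others. Its log2 fold change was 8.66 ± 0.57 (SE; adjusted p = 4.58e-09, edgeR), and without replicate 2 it was at least 723-fold higher. Aa_G141670.h1, of only 111 bases, rested on 15, 7 and 2 counts in IV_PZ and 2 in replicate 2. Its ratio was 15.6 with a 95% exact Poisson interval of 4.32 to 129. Such intervals cover counting error only, not the spread between libraries. Its call was lost without IV_PZ replicate 1 (adjusted p = 0.0653, edgeR), where the ratio was 8.68 with an interval of 2.40 to 71.7. It was at least 7.95-fold higher without IV_AZ_si replicate 2. Aa_G89720.h1 and Aa_G10710.h1 were too rare to test, with 42 and 13 counts over the 3 IV_PZ libraries and 1 and 3 counts in replicate 2, and all 13 of the latter lay in IV_PZ replicate 3.

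The gaps in TPM between replicate 2 and its group mates were read next. Among targets called higher in IV_PZ without it, Aa_G412970.h1 was at 4683, 5030 and 4791 TPM in IV_PZ, at 857 TPM in replicate 2 and at 179, 140 and 133 TPM in replicates 1, 3 and 4. The log2 fold change was 3.92 ± 1.14 (SE; adjusted p = 0.00698, edgeR) with replicate 2 and 5.03 ± 1.25 (adjusted p = 0.00261, edgeR) without it. It shares reads with others. Aa_G1107360.h1 was at 4904, 3742 and 4216 TPM in IV_PZ, at 1263 TPM in replicate 2 and at 600, 334 and 485 TPM in the others, with a log2 difference of 2.72 ± 0.33 (SE; adjusted p = 1.89e-06, edgeR) and of 3.21 ± 0.28 without replicate 2. It was far more abundant in the young perennial zone, at 33965 ± 10435 TPM at 5 weeks and 29777 ± 7110 TPM at 7 weeks (SD, n = 3 each).

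Aa_G288930.h1 had the largest such gap in TPM and the weakest call. It was at 4286, 2846 and 4798 TPM in IV_PZ, at 3114 TPM in replicate 2 and at 2324, 2410 and 2273 TPM in the others, so that replicate 2 lay above the lowest IV_PZ library. The log2 fold change was 0.69 ± 0.24 (SE; adjusted p = 0.0183, edgeR). The call was lost without IV_PZ replicate 1 (adjusted p = 0.0551, edgeR) and without IV_PZ replicate 3 (adjusted p = 0.104, edgeR). Without IV_AZ_si replicate 2 it was 0.80 ± 0.25 (adjusted p = 0.0125, edgeR).

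On the lower side the targets named here were chosen for the largest gaps of replicate 2 below its group mates. For 62.6% of 1049 lower targets of at least 4-fold and 5 TPM, replicate 2 was the library nearest to IV_PZ. In those named it stayed far above every IV_PZ library. Aa_G20460.h1 was at 6.52, 9.67 and 28.5 TPM in IV_PZ and at 1998, 1371, 1958 and 2500 TPM in IV_AZ_si, a log2 difference of -6.99 ± 0.52 (SE; adjusted p = 4.85e-09, edgeR), or -7.90 without IV_PZ replicate 3. Aa_G274290.h1 was at 111, 154 and 165 TPM against 1539, 1102, 1583 and 2032 TPM, a log2 difference of -3.42 ± 0.21 (SE; adjusted p = 4.27e-10, edgeR). Aa_G578820.h1 was at 166, 199 and 171 TPM against 1456, 1022, 1471 and 1848 TPM, a log2 difference of -3.00 ± 0.30 (SE; adjusted p = 1.63e-07, edgeR). In all 3, as in Aa_G435120.h1, replicate 2 was the lowest of the short-internode libraries, which their choice fixed, and replicate 4 the highest. Without replicate 2 the log2 fold changes were -7.13, -3.56 and -3.14, and that of Aa_G435120.h1 was -3.51.

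Some abundant transcripts differed little between the internodes. Aa_G392180.h1 was at 7500, 7315 and 9437 TPM in IV_PZ and at 7894, 8230, 8480 and 8618 TPM in IV_AZ_si, with a log2 difference of -0.01 and a 95% interval of -0.20 to 0.19. Aa_G87790.h1 was at 5578, 6053 and 5848 TPM against 6494, 6164, 5871 and 5907 TPM, with an interval of -0.19 to 0.12. Aa_G14880.h1 and Aa_G94370.h1 had intervals of -0.03 to 0.28 and -0.10 to 0.39. These 4 were named for lying within ± 0.5 on the log2 scale, and none was called with or without replicate 2.

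The most abundant targets whose call hung on replicate 2 mostly had small differences. In the fits of all groups, those called only with it were Aa_G401510.h1, Aa_G492520.h1 and Aa_G1058740.h2. Aa_G401510.h1, which shares reads, was at 1247, 1570 and 1377 TPM in IV_PZ and at 2827, 4804, 2169 and 1455 TPM in IV_AZ_si. Replicate 2 was the highest here, away from the perennial zone, and replicate 4 overlapped with IV_PZ. Its log2 fold change was -0.97 ± 0.34 (SE; adjusted p = 0.0211, edgeR) and -0.59 ± 0.30 (adjusted p = 0.103, edgeR) without replicate 2; the call was also lost without IV_PZ replicate 1 (adjusted p = 0.0711, edgeR) and IV_PZ replicate 3 (adjusted p = 0.0522, edgeR). Aa_G492520.h1 and Aa_G1058740.h2 had log2 fold changes of 0.19 ± 0.07 and 0.41 ± 0.16 (SE), and of 0.17 and 0.38 without replicate 2 (adjusted p = 0.0739 and 0.0801, edgeR). Both calls also ended without IV_PZ replicate 3 (adjusted p = 0.0782 and 0.204, edgeR) and without IV_AZ_si replicate 1 (adjusted p = 0.0822 and 0.0983, edgeR). That of Aa_G492520.h1 ended without IV_AZ_si replicate 3 too (adjusted p = 0.0528, edgeR), and that of Aa_G1058740.h2 without IV_AZ_si replicate 4 (adjusted p = 0.0562, edgeR). In the 7-library fit without replicate 2, chosen after seeing the data, Aa_G401510.h1 and Aa_G1058740.h2 stayed called (adjusted p = 0.0380 and 0.0497, edgeR) and Aa_G492520.h1 did not (adjusted p = 0.0588, edgeR). With replicate 2, limma-trend on log2(TPM + 1) called neither Aa_G492520.h1 nor Aa_G1058740.h2 (adjusted p = 0.0744 and 0.0626). Called only without replicate 2 in the fits of all groups were Aa_G53870.h1 and the pair Aa_G692960.h1 and Aa_G692960.h2, which had identical values and share reads. Their log2 fold changes went from 0.17 to 0.28 (adjusted p = 0.162 and 0.00950, edgeR) and from 0.41 to 0.52 (adjusted p = 0.0739 and 0.0368, edgeR). The 7-library fit without replicate 2 called Aa_G53870.h1 (adjusted p = 0.00667, edgeR) but not the pair (adjusted p = 0.0646, edgeR), and limma-trend on log2(TPM + 1) called the pair with replicate 2 (adjusted p = 0.0496). Over all targets called in only 1 of the fits, the median size of the log2 fold change was 0.48 for those called with replicate 2 and 0.50 for those called without it.

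The targets that set the zones apart were then followed through the other libraries. Those higher in IV_PZ made up 48.4% ± 0.36 of its TPM (SD, n = 3) beside 24.6% ± 1.5 in IV_AZ_si (SD, n = 4), and those lower made up 19.8% ± 0.35 and 44.6% ± 2.3, which the choice of targets fixed. Groups outside that contrast shared its filter, its scaling and its estimate of the spread. In them the higher set held 23.0% ± 0.15 at 4 weeks, 24.1% ± 1.6 at 5 weeks, 32.5% ± 0.29 at 7 weeks and 19.6% ± 0.55 in IV_AZ_if (SD, n = 3 each). The lower set held 43.7% ± 0.032, 46.4% ± 0.47, 32.7% ± 0.35 and 52.4% ± 1.3 (SD, n = 3 each) in the same groups. Of the groups outside the contrast, the perennial zone of 7 weeks lay nearest to IV_PZ in both sets and the internode by the inflorescence farthest from it. Over the whole pool, with no choice of targets, the 4 short-internode libraries were 24.8% to 26.9% of the TPM from III_PZ, 27.5% to 29.3% from II_PZ and 31.4% to 32.5% from I_PZ, as means per library. The IV_PZ libraries were 29.2% to 29.6% from III_PZ and 38.6% to 39.2% from IV_AZ_if. They were 40.4% to 40.7% from I_PZ and 40.7% to 41.1% from II_PZ. Over the whole pool I_PZ and II_PZ, not IV_AZ_if, thus lay farthest from IV_PZ. By these means III_PZ was also nearer to IV_AZ_si than to IV_PZ. The 3 libraries of 7 weeks did not overlap with those of 5 weeks in either set, and the exact two-sided permutation test gave p = 0.1, the smallest for 3 against 3. With the targets called without replicate 2 the higher set held 32.4% ± 0.23 at 7 weeks and 23.8% ± 1.5 at 5 weeks (SD, n = 3 each). The lower set held 30.5% ± 0.35 and 45.9% ± 0.57 (SD, n = 3 each).

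**Figure D4:**
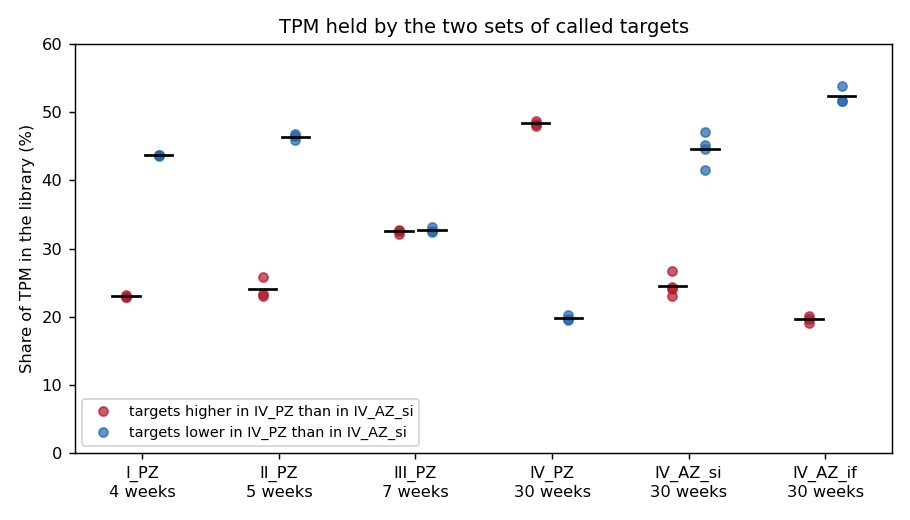
Share of the TPM of each of the 19 libraries, in percent, held by the 6041 targets higher (red) and the 7393 lower (blue) in IV_PZ than in IV_AZ_si; points are libraries and lines group means. The choice of targets fixed the values of IV_PZ and IV_AZ_si; in the other groups the red share rises from 24.1% at 5 weeks to 32.5% at 7 weeks and the blue share drops from 46.4% to 32.7%.

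Many of the targets that set the zones apart at 30 weeks had also changed in the young perennial zone between 5 and 7 weeks, a comparison that shares no library with it. Of the targets higher in IV_PZ than in IV_AZ_si, 3045 (50.4%) rose from II_PZ to III_PZ, where 26.6% of all tested targets rose, and 786 (13.01%) fell, where 31.1% of all fell. Of the targets lower in IV_PZ, 4052 (54.8%) fell and 1056 (14.3%) rose. Seen from the other list, 48.7% of the targets that rose from 5 to 7 weeks were higher in IV_PZ, and 55.5% of those that fell were lower. Among targets at least 4-fold apart between the zones, 61.1% of the higher ones rose and 50.9% of the lower ones fell. Without replicate 2 the shares were 51.8%, where 26.7% of all rose, and 56.0%, where 31.3% of all fell. The age comparison shifted with the scale, its median log2 fold change over all targets being -0.03 with TMM scaling and 0.22 with size factors of the TPM scale. On that scale 66.9% of the higher targets rose, where 37.9% of all rose, and 42.7% of the lower ones fell, where 22.0% of all fell. The 1056 targets lower in IV_PZ that had risen from 5 to 7 weeks took 8.46% of the TPM in III_PZ, 6.78% in IV_AZ_si and 3.17% in IV_PZ, as group means. Aa_G93530.h1 was one of these, and Aa_G578820.h1 another, which rose by 0.99 ± 0.29 on the log2 scale (SE; adjusted p = 0.00660, edgeR).

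The same split appeared between the perennial zone at 7 weeks and the internode by the inflorescence, again with no library in common with the comparison of the zones. This comparison was added after the data were examined. Of the targets higher in IV_PZ than in IV_AZ_si, 3335 (55.2%) were higher in III_PZ than in IV_AZ_if, where 27.6% of all were, and 551 (9.12%) were lower, where 29.8% of all were. Of the targets lower in IV_PZ, 4269 (57.7%) were lower in III_PZ and 1037 (14.03%) higher. Without replicate 2 the leading shares were 56.5% and 59.2%, where 27.8% and 29.9% of all were called. With size factors of the TPM scale they were 70.3%, where 37.0% of all were higher, and 48.4%, where 22.9% were lower. This comparison and that of 7 with 5 weeks share the III_PZ libraries, so their values are not separate evidence.

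**Figure D5:**
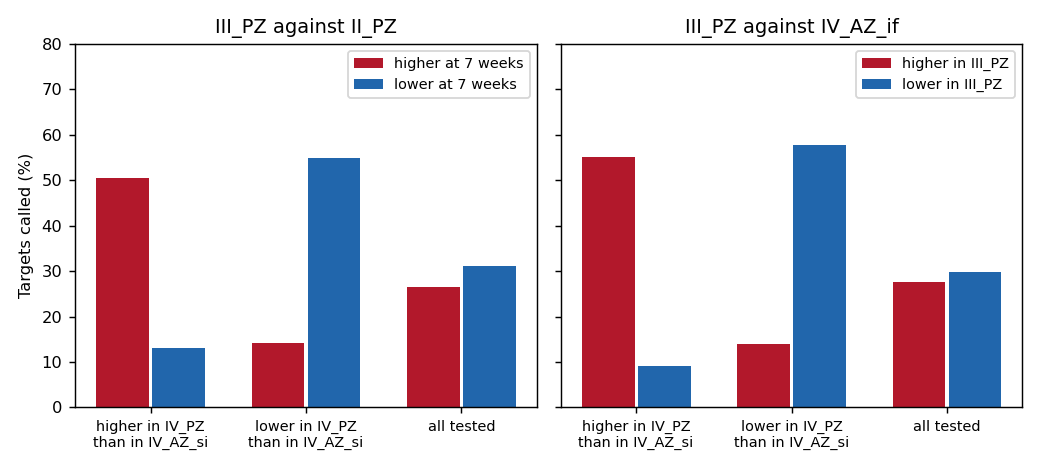
Share of targets called, in percent, among those higher in IV_PZ than in IV_AZ_si, those lower, and all 23528 tested, in the comparisons of III_PZ with II_PZ (left) and of III_PZ with IV_AZ_if (right), neither of which uses an IV_PZ or IV_AZ_si library. Targets higher in IV_PZ were more often higher in III_PZ (50.4% and 55.2%) than all targets (26.6% and 27.6%), and targets lower in IV_PZ more often lower (54.8% and 57.7% beside 31.1% and 29.8%).

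Between 4 and 5 weeks the lean was the other way and smaller. Of the targets lower in IV_PZ, 1203 (16.3%) rose from I_PZ to II_PZ, where 9.33% of all tested targets rose. Of those higher in IV_PZ, 572 (9.47%) fell, where 6.78% of all fell. With size factors of the TPM scale these shares were 12.4%, where 6.44% of all rose, and 13.3%, where 9.56% of all fell. Among targets at least 4-fold apart between the zones, 18.5% of the lower ones rose, but only 4.49% of the higher ones fell, under the share of all targets. Both this step and the next use the II_PZ libraries.

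Of the 6 groups, the perennial zone at 30 weeks most often held the highest and the lowest levels. All 3 IV_PZ libraries lay above every other library of the series for 3340 tested targets (14.2%) and below every other for 3623. For the 4 libraries of IV_AZ_si this held for 731 (3.11%) and 174 targets, with the bar higher for 4 libraries than for 3. Among the other groups of 3 libraries, the libraries lay above all others for 2314 targets in I_PZ, 2012 in III_PZ, 1134 in IV_AZ_if and 221 in II_PZ, and below all others for 934, 599, 1060 and 336.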

How the data were processed

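Per the submitters' processing notes, the authors used bcl2fastq and kallisto, with versions, transcript reference and build not given in the sources used here. The deposited file of each library gives estimated counts and TPM for 34220 targets, per the file headers. A deposited TPM table of the series repeats 30158 of them with no difference. Per the labels' protocols, the libraries were stranded TruSeq mRNA libraries from total RNA. Lengths are coding lengths, since 99.5% are multiples of 3.

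Estimated counts were rounded and tested with edgeR 4.0.16 in R 4.3.3 (TMM scaling, minimum count 10 and total 15), all 19 libraries in 1 fit with group as the only term. Standard errors come from the test statistic. DESeq2 1.42.0, limma-trend (limma 3.58.1), other scalings and filters, a replicate block and left-out libraries were alternatives. A target shares reads where a count lay over 0.001 from a whole number. Replicates differed by more than sampling noise (chi-square per degree of freedom 10.6 to 38.6), and p-values measure only the spread between these samples. On simulated data of 23073 targets with 200 changed, edgeR recovered 72.0% of 2-fold and 92.0% of 4-fold changes of IV_PZ against IV_AZ_si. It made 4 false calls. The changed targets were drawn from those above a minimum mean count, so the rates do not cover rarer targets. In the real data far more targets differ.

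The members and lists were chosen with earlier results of these data known. Named targets were the 6 with the largest gain and loss of TPM called with and without IV_AZ_si replicate 2, the 4 most abundant with no count in a group (or none but in replicate 2), the 4 in which replicate 2 differed most, the 4 most abundant steady ones, the 3 whose call hung on replicate 2, and the 4 most abundant in which 1 group exceeded all others. Gene and marker lists needed names the files do not give and were not used here.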

Additional observations from a re-analysis of the deposited data

Results flagged for a closer look

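In 7 of the named targets 1 of the 4 IV_AZ_si libraries stood far from the others, each time replicate 2 on the high side. The measure is the gap to the nearest library as a share of the range, and each value exceeded Dixon's 95% critical value for 4 samples. The ratio was 1 for Aa_G412950.h1, Aa_G141670.h1, Aa_G89720.h1 and Aa_G10710.h1, which were named for having a count in replicate 2 alone, on 6, 2, 1 and 3 counts. It was 0.936 for Aa_G412970.h1 (857 TPM in replicate 2, 133 to 179 in the others) and 0.837 for Aa_G288930.h1 (3114 TPM and 2273 to 2410), both named for that gap. It was 0.974 for Aa_G53870.h1 (646 TPM and 479 to 483), which was called only without replicate 2. The rules that named these targets favour such gaps. Over all 17245 tested targets with at least 5 TPM in the higher group, 4.95% stood out in this way, where chance gives about 1 in 20. Replicate 2 was the library that stood out in 1.81%, replicates 1, 3 and 4 in 1.15%, 1.03% and 0.963%.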

How the results depend on the processing

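The number of called targets (13434) ran from 10402 without targets that share reads, where fewer targets were tested, to 13609 in DESeq2. Leaving out a library gave 12438 to 13162, with 5613 to 5890 higher and 6820 to 7272 lower. None of these alternatives moved the counts by over 1.5 times. With the replicate block 12348 were called, 5470 higher and 6878 lower. The shared replicate numbers have no stated pairing, and same-numbered libraries did not deviate together (correlations of 0.0228, 0.0356 and -0.0142 across targets). Fitting the 7 libraries alone called 12641, 6061 higher and 6580 lower, a smaller excess of lower targets than in the main fit. Without IV_AZ_si replicate 2 this fit called 12357, 5952 higher and 6405 lower, and was chosen after seeing the data. The 14 targets found in IV_PZ and missing from IV_AZ_si became 23 without IV_AZ_si replicate 2 (12 to 23 over all left-out libraries), 5 at a minimum of 20 TPM and 39 with untested targets; the 96 of the other direction became 27 and 152, and 91 to 126 over left-out libraries. The untested count was added after seeing the data. Of 32 called named targets, 26 kept call and direction in every alternative that could be computed. None of 646 values for the named targets reversed a call, though the sign of steady targets changed in some alternatives without a call. The block ended the calls of Aa_G288930.h1 (adjusted p = 0.0621) and Aa_G1058740.h2 (adjusted p = 0.0741) in edgeR, and of no other named target. The pool difference stayed within 27.5% to 29.0%, and on log2(TPM + 0.1) the places of IV_AZ_si replicate 2 became 22.6% and 9.70%. DESeq2 gave no adjusted p for some named targets, which were left out of these counts. Depth limits the short targets of few counts, for which only lower bounds or wide intervals could be given.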

Other observations

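The direction of the differences varied with coding length. Among called targets of at least 2400 bases, 61.6% were higher in IV_PZ than in IV_AZ_si (956 higher and 595 lower), and 60.9% without replicate 2. Between 600 and 1200 bases the share was 39.8% (1779 and 2688), and 39.6% without replicate 2. Below 300 bases it was 52.6% (359 and 323). The median log2 fold change over all tested targets was 0.15 in the longest class, -0.12 between 600 and 1200 bases and 0.15 in the shortest. By abundance the longest class overlapped between the zones: it took 3.53% to 3.71% of the TPM in the IV_PZ libraries and 3.53% to 3.68% in those of IV_AZ_si. The shortest class took 31.1% to 33.6% in IV_PZ and 27.7% to 29.1% in IV_AZ_si, without overlap. In III_PZ it took 32.3% to 33.4%, beside 27.0% to 30.2% at 5 weeks and 25.4% to 26.5% in IV_AZ_if.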
